A study of Mus musculus with 6 samples.

Results

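The SR and hnRNP splicing factors were taken as every listed gene whose symbol is Srsf followed by digits or starts with Hnrnp, together with Tra2a, Tra2b, Srrm1, Srrm2, Sf3b1, U2af1 and U2af2. The rule found 38 of the 21878 rows: 13 SR genes (11 Srsf genes, Tra2a and Tra2b), 20 hnRNP genes and 5 core genes (Srrm1, Srrm2, Sf3b1, U2af1 and U2af2). Their mRNA was measured by RNA sequencing in bone marrow cells of wild-type (WT) mice, which the labels call LT-HSCs (long-term hematopoietic stem cells), the rare cells at the top of blood formation. The sort took cells with c-Kit and Sca1 on their surface and without lineage antigens, CD34 or CD135. The mice had eaten a control diet (CD, 3 libraries) or a diet free of serine and glycine (SGFD, 3 libraries) for 3 months. The labels name no strain, age or sex. Nor do they tell whether each library stands for a separate mouse; p-values therefore reflect only how far these samples scatter, and that scatter may be technical.

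Splicing removes introns from pre-mRNA in the spliceosome, which assembles on each intron from small nuclear particles. SR proteins carry RNA-binding domains and a tail rich in arginine and serine. They bind exons and recruit the machinery, and kinases of the SRPK and CLK families control them by phosphorylating that tail. The hnRNP proteins coat nascent RNA and often act against SR proteins at the same exon, while several of them also steer mRNA export and decay. U2af1, U2af2 and Sf3b1 recognise the end of the intron and its branch point, and Srrm1 and Srrm2 are large proteins of nuclear speckles. SF3B1, SRSF2 and U2AF1 are recurrently mutated in human myelodysplastic disease, which is why these genes are followed closely in blood stem cells. Many genes of this group limit their own output by splicing in an exon or intron that sends the transcript to nonsense-mediated decay.

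Across the group, 5 members fell with SGFD under every setting that was run: the SR genes Srsf4, Srsf6 and Srsf7, the hnRNP gene Hnrnph3 and the speckle gene Srrm2. Their mean level with SGFD was between 0.687 (Hnrnph3) and 0.829 (Srsf4) of that with CD. A single member, Hnrnpd, rose under every setting, to 1.29 times its CD level. Hnrnpab, Hnrnpa1, Hnrnpa2b1 and Hnrnpa0 rose on the deposited scale but not after quantile normalization. Sf3b1, U2af1, U2af2 and Srsf2 did not pass the test on the deposited scale.

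Levels are given as FPKM, fragment numbers corrected for the length of the gene and the size of the library. Changes were tested with limma on log2(FPKM + 1) for 10620 genes, those reaching 1 FPKM in 3 libraries or more, with Benjamini-Hochberg adjustment and a threshold of 0.05. A gene called higher or lower below passed that threshold. The added 1 FPKM shrinks the fold change of genes of low level. Of all tested genes the test called 59.4%, with 17.7% higher and 41.8% lower with SGFD, and for 65.2% the values of the diets did not overlap. Of the 37 tested members 19 were called (51.4%), 8 higher (21.6%) and 11 lower (29.7%), and 25 did not overlap (67.6%). On the deposited scale the members were thus called, in both directions together, at a rate near that of all tested genes, though fewer were lower. The median log2 fold change of the members was 0.03, beside -0.13 for all tested genes, and after quantile normalization the order was the reverse, -0.099 beside -0.017. No member changed by 1 or more on the log2 scale, against 171 of all tested genes.

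How the libraries are scaled decides much of the direction. After scaling by the median ratio of genes, 21 members were called higher and 5 lower, beside 28.8% and 26.8% of all tested genes. After quantile normalization 1 was called higher and 16 lower, beside 21.3% and 24% of all tested genes. With every library rescaled to the same sum the counts were 2 higher and 17 lower, beside 9.72% and 59.6%. The 13 members that only median-ratio scaling, of the 3, called higher and the deposited scale did not were Srsf1, Srsf2, Srsf3, Srrm1, U2af1, U2af2, Hnrnpa3, Hnrnpdl, Hnrnpf, Hnrnph2, Hnrnpk, Hnrnpl and Hnrnpm. Calls that hold under all 3 scalings are therefore separated from the others below. The plot of the fitted changes under 4 scalings shows all 37.

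**Figure D1:**
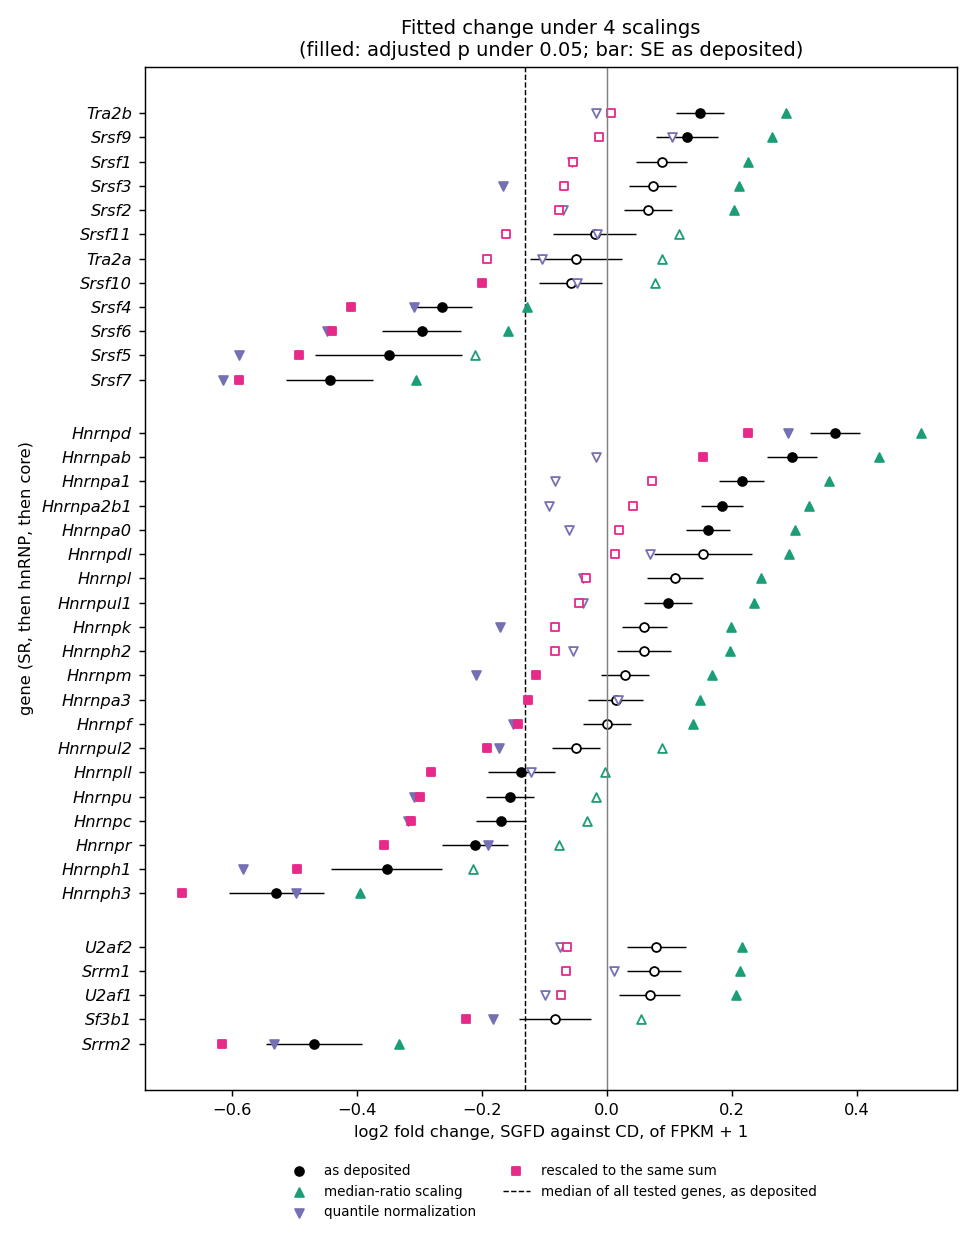
Fitted log2 fold change (x axis, SGFD against CD, of FPKM + 1) of the 37 tested members (y axis; SR, hnRNP and core genes in turn) on the deposited scale and under 3 other scalings; filled symbols have an adjusted p under 0.05, bars are the SE on the deposited scale and the dashed line is the median of all tested genes. Hnrnpd is filled and right of 0, and Srsf4, Srsf6, Srsf7, Hnrnph3 and Srrm2 are filled and left of 0, in all 4 versions.

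The libraries held between 18427138 and 19531159 fragments, as recovered from the deposited values, and a tested member was backed by 935 to 35875 fragments in each library. Srsf12 was the only member not tested: it was listed at 0.281, 0.151 and 0.135 FPKM with CD and 0.0330, 0.0158 and 0.168 FPKM with SGFD, from 1 to 17 fragments, and no comparison was made. The identity of the sorted cells bears on all comparisons. Of 11 tested LT-HSC markers (Hlf, Mycn, Procr, Mecom and others) 9 were lower and none higher with SGFD, and their summed level lay between 199 and 202 FPKM with CD and between 94.6 and 96.4 FPKM with SGFD. Granulocyte-monocyte progenitor markers went the other way, 7 of 10 higher and 2 lower. Their sums were 1527 to 1579 FPKM with CD and 4058 to 4449.7 FPKM with SGFD. The 2 lower, Cd34 and Flt3 (CD135), encode antigens that the sort excluded. Their mRNA was high with both diets, Cd34 at 471 and then 429 FPKM and Flt3 at 114 and then 90.5 FPKM. The sort reads surface protein, and how that relates to these mRNA levels was not tested. Of the monocyte markers 7 of 8 and of the tested neutrophil markers 5 of 5 were higher. Of the macrophage markers 5 of 5 tested were lower, but all lay near the floor and reached 1 FPKM only with CD. They entered the test through that diet alone, so the filter fixed their direction. The B cell markers Cd79a and Igll1 also entered through CD alone, and the neutrophil markers Camp and Lcn2 through SGFD alone. Of the B cell markers 3 of 4 tested were lower and of the erythroid markers 3 of 4, and the megakaryocyte markers had 1 higher and 1 lower of 4. The calls of the LT-HSC, progenitor, monocyte, neutrophil, macrophage, B cell and erythroid lists differed by at most 1 gene under the 3 other scalings. Among the T and NK cell markers Cd3e was at 0 in every library, 1 of 2 tested was higher and 1 lower. The part of these shifts in the changes of splicing factors was not tested, and in bulk samples fewer cells of a type and less RNA per cell cannot be told apart.

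The promoters of the 5 called members whose window before the start lies outside the gene in both RefSeq and GENCODE are shown first, since they let a reader set genes that rose beside genes that fell. RefSeq (GRCm38.p6) windows matched 35 of the 38 members; Hnrnpll, Hnrnpul2 and U2af2 had none. Each line gives the 150 bases directly before the start, 5′ to 3′ on the gene's strand, with GC boxes (GGGCGG) and CCAAT boxes (CCAAT) on either strand in capitals. Hnrnpab (chr11:51606882-51607031, minus strand), Hnrnpa0 (chr13:58128557-58128706, minus strand) and Tra2b (chr16:22266006-22266155, minus strand) rose on the deposited scale. Hnrnpr (chr4:136310792-136310941, plus strand) and Srsf6 (chr2:162931358-162931507, plus strand) fell there.
Hnrnpab: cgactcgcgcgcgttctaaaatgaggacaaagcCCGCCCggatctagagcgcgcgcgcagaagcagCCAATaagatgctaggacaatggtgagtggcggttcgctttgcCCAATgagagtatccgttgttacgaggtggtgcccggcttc
Hnrnpa0: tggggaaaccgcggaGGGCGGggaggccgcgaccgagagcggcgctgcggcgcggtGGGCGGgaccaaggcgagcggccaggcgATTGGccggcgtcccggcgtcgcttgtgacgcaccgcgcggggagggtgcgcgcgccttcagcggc
Tra2b: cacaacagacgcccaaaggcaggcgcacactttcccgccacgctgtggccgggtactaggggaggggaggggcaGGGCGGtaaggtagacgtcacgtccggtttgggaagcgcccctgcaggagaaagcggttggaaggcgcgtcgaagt
Hnrnpr: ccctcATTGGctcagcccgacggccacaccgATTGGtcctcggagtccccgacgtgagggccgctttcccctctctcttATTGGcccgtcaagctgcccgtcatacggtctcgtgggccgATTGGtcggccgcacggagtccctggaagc
Srsf6: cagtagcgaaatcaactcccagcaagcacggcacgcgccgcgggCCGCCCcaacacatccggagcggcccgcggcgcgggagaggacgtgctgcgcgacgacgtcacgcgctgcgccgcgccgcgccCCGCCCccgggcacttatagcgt

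The window of Hnrnpr shows CCAAT boxes and no GC box in these 150 bases, that of Srsf6 shows GC boxes and no CCAAT box, and Hnrnpab and Hnrnpa0 show both. In the 250 bases before the start a GC box was found in 28 of 35 members (80.0%) and in 60.8% of 8274 tested genes with a window, and a CCAAT box in 18 of 35 (51.4%) and 37.1%. The ETS core CCGGAA was found in 31.4% of members and 24.7% of tested genes, and TCGCGA in 11.4% and 4.5%. The letters TGATGNAA, to which ATF4 can bind with a C/EBP partner, were in 1 member, Hnrnpa2b1 (2.9%), and in 1.9% of tested genes. TGACGTCA was in 1 member, Tra2a (2.9%, and 2.9% of tested genes), TATAAA in 3 (8.6% and 5.5%) and CACGTG in 2 (5.7% and 8.8%). Both strands were searched, and matches of different motifs were allowed to overlap. The members' windows held a median of 23 CpG dinucleotides, beside 16 for the tested genes. The range was wide, from 6 in Hnrnpf to 46 in Hnrnpa0, and a match is a description of letters only.

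The SR genes divided into 4 that were lower, 2 that were higher and 6 that did not pass, with a median log2 fold change of -0.03. Srsf7 (9G8), which also hands mRNA to the export receptor, had 161, 146 and 159 FPKM in CD replicates 1 to 3 and 111, 128 and 104 FPKM in SGFD replicates 1 to 3. The 3 SGFD values all lay below the lowest CD value, and Srsf7 fell by 0.44 ± 0.07 (SE) on the log2 scale (limma, adjusted p = 0.000404). Srsf6 had 138, 132 and 139.9 FPKM with CD and 111, 122 and 101 FPKM with SGFD, again without overlap (log2 fold change of -0.30 ± 0.06, adjusted p = 0.00243 in limma). Srsf4 (SRp75), whose protein belongs with those of Srsf5 and Srsf6 to a branch with an additional, divergent RNA-binding domain, was less abundant. It had 50.8, 48.3 and 52.0 FPKM with CD and 41.3, 43.6 and 40.4 FPKM with SGFD, a fall of 0.27 ± 0.05 (SE) in log2 with an adjusted p of 0.00107 in limma. Srsf5 had the highest level of the SR genes and the widest spread. Its values were 332, 291 and 333 FPKM with CD and 247, 308 and 204 FPKM with SGFD, so that SGFD replicate 2 lay above CD replicate 2. The fall of Srsf5 by 0.35 ± 0.12 (SE) passed at an adjusted p of 0.0253 in limma, but not when CD replicate 1 (0.134) or CD replicate 3 (0.118) was left out, or SGFD replicate 1 (0.0685) or 3 (0.0701), nor after median-ratio scaling (0.134).

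The other SR genes were level or slightly higher. Tra2b, which promotes exons with purine-rich enhancers, had 125, 123 and 125 FPKM with CD and 139, 142 and 133 FPKM with SGFD. It rose by 0.15 ± 0.04 in log2 (limma, adjusted p = 0.00736), a call that the fits after quantile normalization (log2 fold change of -0.018) and after rescaling to the same sum did not give. Its relative Tra2a had 53.1, 55.7 and 57.0 FPKM with CD and 52.3, 60.5 and 48.0 FPKM with SGFD, and the diets overlapped. Tra2a did not pass, except without SGFD replicate 2, where its log2 fold change was -0.14 (limma, adjusted p = 0.0409). Srsf9 had 39.8, 40.3 and 38.7 FPKM with CD and 45.5, 43.4 and 41.2 FPKM with SGFD, at an adjusted p of 0.0454 in limma. That call for Srsf9 was lost without any 1 library other than SGFD replicate 3 (adjusted p of 0.0961, 0.0700 and 0.143 without CD replicates 1 to 3, and 0.169 and 0.0630 without SGFD replicates 1 and 2), and rescaling to the same sum put it at -0.0128. Srsf2 (SC35), the SR gene mutated in myeloid disease, had 146, 142 and 143 FPKM with CD and 147, 156 and 149 FPKM with SGFD. These values did not overlap, yet the difference of 0.07 ± 0.04 did not pass (limma, adjusted p = 0.164). Srsf3, the closest relative of Srsf7, had 214, 214 and 213 FPKM with CD and 226, 231 and 217 FPKM with SGFD. It missed the threshold too, without overlap of the diets (limma, adjusted p = 0.115). Without SGFD replicate 3 Srsf3 was called higher (adjusted p of 0.0404), and after quantile normalization lower (log2 fold change of -0.17). Srsf1 (SF2/ASF), the founding SR protein, went from 102 ± 0.844 to 108 ± 4.08 FPKM (SD, n = 3 each) without passing, and was called higher after median-ratio scaling (log2 fold change of 0.22), as was Srsf2 (0.20). Srsf10 went from 35.8 ± 0.415 to 34.4 ± 1.83 FPKM, with overlap, and was called lower only after rescaling to the same sum (log2 fold change of -0.20). Srsf11 went from 35.04 ± 1.8 to 34.6 ± 3.00 FPKM and passed under no setting.

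**Figure D2:**
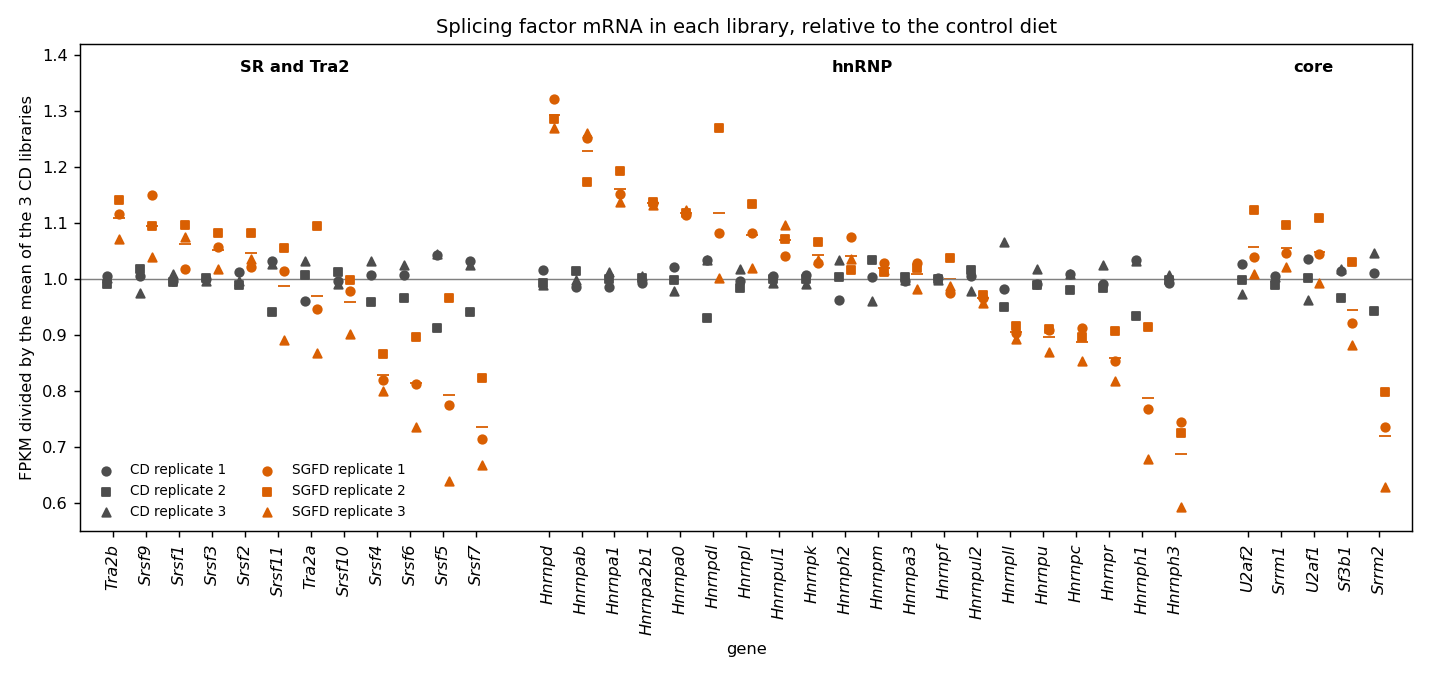
FPKM in each library divided by the mean of the 3 CD libraries (y axis) for the 37 tested members (x axis, grouped into SR and Tra2, hnRNP and core genes); grey symbols are CD libraries, orange symbols SGFD libraries, the shape gives the replicate number and the short lines are SGFD means. Hnrnpd, Hnrnpab, Hnrnpa1, Hnrnpa2b1 and Hnrnpa0 lie wholly above the CD libraries, Hnrnph3, Srrm2, Srsf7, Srsf6 and Srsf4 wholly below, and for Srsf5 the square of SGFD replicate 2 reaches the CD range.

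The hnRNP genes were evenly divided, 6 higher and 6 lower of 20, with a median log2 fold change of 0.04. Hnrnpd (AUF1), which binds AU-rich elements and controls mRNA decay, had 55.7, 54.5 and 54.3 FPKM with CD and 72.4, 70.5 and 69.6 FPKM with SGFD. The diets were far apart relative to the spread within each, and Hnrnpd rose by 0.36 ± 0.04 in log2 (limma, adjusted p = 4.97e-05), or 0.50 above the median gene. Hnrnpab (CBF-A) had 399, 410.1 and 403 FPKM with CD and 506, 474 and 509 FPKM with SGFD, a rise of 0.30 ± 0.04 (limma, adjusted p = 0.000168). It passed under every setting but quantile normalization, where its log2 fold change was -0.018.

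Hnrnpa1 and Hnrnpa2b1, of the A type, had the highest mean levels among the members. Hnrnpa1, which blocks splice sites when it binds silencers, exceeded 99.2% of tested genes in mean level and had 757, 768 and 777 FPKM with CD and 884, 916 and 874 FPKM with SGFD. It rose by 0.22 ± 0.04 in log2 (limma, adjusted p = 0.000627). Hnrnpa2b1, a close relative, had 471, 474 and 476 FPKM with CD and 538, 539 and 537 FPKM with SGFD, with an SD of 2.87 FPKM and of 1.24 FPKM. Hnrnpa2b1 rose by 0.18 ± 0.03 (limma, adjusted p = 0.00107) and Hnrnpa0, a gene without introns, by 0.16 ± 0.04, from 229 ± 4.86 to 256 ± 1.06 FPKM. None of these 3 A-type genes passed after quantile normalization, where their log2 fold changes were -0.083 (Hnrnpa1), -0.093 (Hnrnpa2b1) and -0.061 (Hnrnpa0), nor after rescaling to the same sum. Hnrnpa3, the A-type gene of lowest level, went from 35.6 ± 0.131 to 35.9 ± 0.879 FPKM, a difference within the spread. Hnrnpul1 was called higher at an adjusted p of 0.0489 in limma, from 95.6 ± 0.58 to 102 ± 2.65 FPKM. The call was lost without any 1 library (adjusted p of 0.112, 0.113 and 0.133 without CD replicates 1 to 3, and 0.0540, 0.0501 and 0.113 without SGFD replicates 1 to 3), and both quantile normalization and rescaling to the same sum turned its direction, to -0.0385 and -0.045.

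The hnRNP genes that fell were led by the H group, whose proteins bind runs of G. Hnrnph3 had 34.3, 34.5 and 34.8 FPKM with CD and 25.7, 25.0 and 20.4 FPKM with SGFD, the largest fall among the members at 0.53 ± 0.08 in log2 (limma, adjusted p = 0.000234). Hnrnph1 had 277, 250.1 and 277 FPKM with CD and 206, 245 and 182 FPKM with SGFD. Its diets were separated by a small gap only, between SGFD replicate 2 and CD replicate 2, and its fall of 0.35 ± 0.09 (limma, adjusted p = 0.00627) was not called with median-ratio scaling (0.0523). The other genes of this group did not pass on the deposited scale: Hnrnph2 went from 79.6 ± 2.85 to 83.0 ± 2.38 FPKM and Hnrnpf from 154 ± 0.22 to 154 ± 5.05 FPKM. For Hnrnpf the call turned with the scaling: it was higher after median-ratio scaling (log2 fold change of 0.14), and lower after quantile normalization (-0.15) and after rescaling to the same sum (-0.14).

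Hnrnpr, the relative of Syncrip, fell from 31.6, 31.4 and 32.7 FPKM to 27.2, 29.0 and 26.1 FPKM, by 0.21 ± 0.05 in log2 (limma, adjusted p = 0.00563). Hnrnpc, which binds runs of U and shields cryptic exons, fell from 133 ± 2.14 to 119 ± 4.08 FPKM, and Hnrnpu (SAF-A), a protein of the nuclear scaffold, from 126 ± 1.97 to 113 ± 2.86 FPKM. These 3 falls were close to that of the median gene, and none passed after median-ratio scaling, with log2 fold changes of -0.08 (Hnrnpr), -0.03 (Hnrnpc) and -0.02 (Hnrnpu). Hnrnpll, which regulates the variable exons of Ptprc (CD45) in lymphocytes, went from 30.6 ± 1.82 to 27.7 ± 0.347 FPKM at an adjusted p of 0.0462 in limma. That call ended when CD replicate 1 (0.0830) or 3 (0.200) was left out, or any SGFD library (0.0973, 0.0506 and 0.0905 for replicates 1 to 3), and median-ratio scaling put its log2 fold change at 0.00.

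The remaining hnRNP genes did not pass on the deposited scale. Hnrnpk, a poly-C binding protein whose loss of a copy is studied in myeloid leukemia, had 268, 266 and 264 FPKM with CD and 273, 283 and 275 FPKM with SGFD (limma, adjusted p = 0.167), and was called higher after median-ratio scaling (log2 fold change of 0.20) and lower after quantile normalization (-0.17). Hnrnpm went from 260.4 ± 9.54 to 266 ± 2.14 FPKM and was called higher after median-ratio scaling (log2 fold change of 0.17), and lower after quantile normalization (-0.21) and after rescaling to the same sum (-0.11). Hnrnpl, which binds CA repeats, went from 141 ± 2.51 to 152 ± 8.09 FPKM (limma, adjusted p = 0.0588). Hnrnpdl, the neighbour and relative of Hnrnpd, went from 60.4 ± 3.62 to 67.5 ± 8.29 FPKM (0.113). Without SGFD replicate 3 both were called higher, Hnrnpl at an adjusted p of 0.0112 and Hnrnpdl at 0.0220. Hnrnpul2 went from 89.7 ± 1.71 to 86.6 ± 0.623 FPKM without overlap of the diets (limma, adjusted p = 0.275). It was called lower after quantile normalization and after rescaling to the same sum.

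Of the 5 core genes Srrm2 alone was called. Srrm2 (SRm300), a scaffold of nuclear speckles, had 64.0, 59.7 and 66.2 FPKM with CD and 46.6, 50.5 and 39.8 FPKM with SGFD, with a gap of several FPKM between the diets. It fell by 0.47 ± 0.08 in log2 (limma, adjusted p = 0.000545), or 0.34 below the median gene. Its partner Srrm1 (SRm160) had 55.4, 54.5 and 55.2 FPKM with CD and 57.6, 60.4 and 56.3 FPKM with SGFD; the difference missed the threshold (limma, adjusted p = 0.154). Sf3b1, the branch point protein of the U2 particle, had 80.0, 76.2 and 80.1 FPKM with CD and 72.6, 81.1 and 69.4 FPKM with SGFD. Its diets overlapped through SGFD replicate 2 and it did not pass (limma, adjusted p = 0.225). Without that library Sf3b1 was called lower, with a log2 fold change of -0.15 and an adjusted p of 0.0132 in limma. It was also called lower after quantile normalization, after rescaling to the same sum and with array weights. U2af1, which reads the AG at the end of the intron, had 136, 132 and 127 FPKM with CD and 137, 146 and 131 FPKM with SGFD. U2af2, which binds the polypyrimidine tract beside it, had 108, 105 and 102 FPKM with CD and 109, 118 and 106 FPKM with SGFD. Neither subunit of this heterodimer passed (limma, adjusted p = 0.246 and adjusted p = 0.175). Median-ratio scaling called both higher, with log2 fold changes of 0.21 (U2af1) and 0.22 (U2af2), and Srrm1 too (0.21).

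Ratios within a library do not change when a library is multiplied by 1 factor, though quantile normalization can move them, and were taken for 9 pairs of relatives or partners, chosen after the values were seen. The ratio of Srsf7 to Srsf3 was 0.752, 0.684 and 0.748 with CD and 0.493, 0.554 and 0.478 with SGFD. Srrm2 stood at 1.15, 1.09 and 1.199 times Srrm1 with CD and at 0.809, 0.836 and 0.707 times with SGFD. Hnrnph3 to Hnrnpf went from 0.224 ± 0.0021 to 0.154 ± 0.0185, Hnrnph1 to Hnrnph2 from 3.37 ± 0.243 to 2.55 ± 0.431, and Hnrnpa1 to Hnrnpa3 from 21.6 ± 0.254 to 24.8 ± 0.571. In these 5 of the 9 pairs the diets did not overlap; the share among other gene pairs was not computed, and with 3 against 3 samples no test was made. After quantile normalization the ratio of Hnrnpa1 to Hnrnpa3 turned, from 23.7 to 22.1, while the other 4 kept their direction without overlap. On the deposited scale the ratios of Srsf9 to Srsf1, Tra2b to Tra2a and Hnrnpd to Hnrnpdl overlapped. U2af1 to U2af2 was 1.25 ± 0.0135 with CD and 1.24 ± 0.0144 with SGFD, overlapping as well. After quantile normalization Srsf9 to Srsf1 did not overlap, at 0.374 with CD and 0.419 with SGFD, while the others of these still did.

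**Figure D3:**
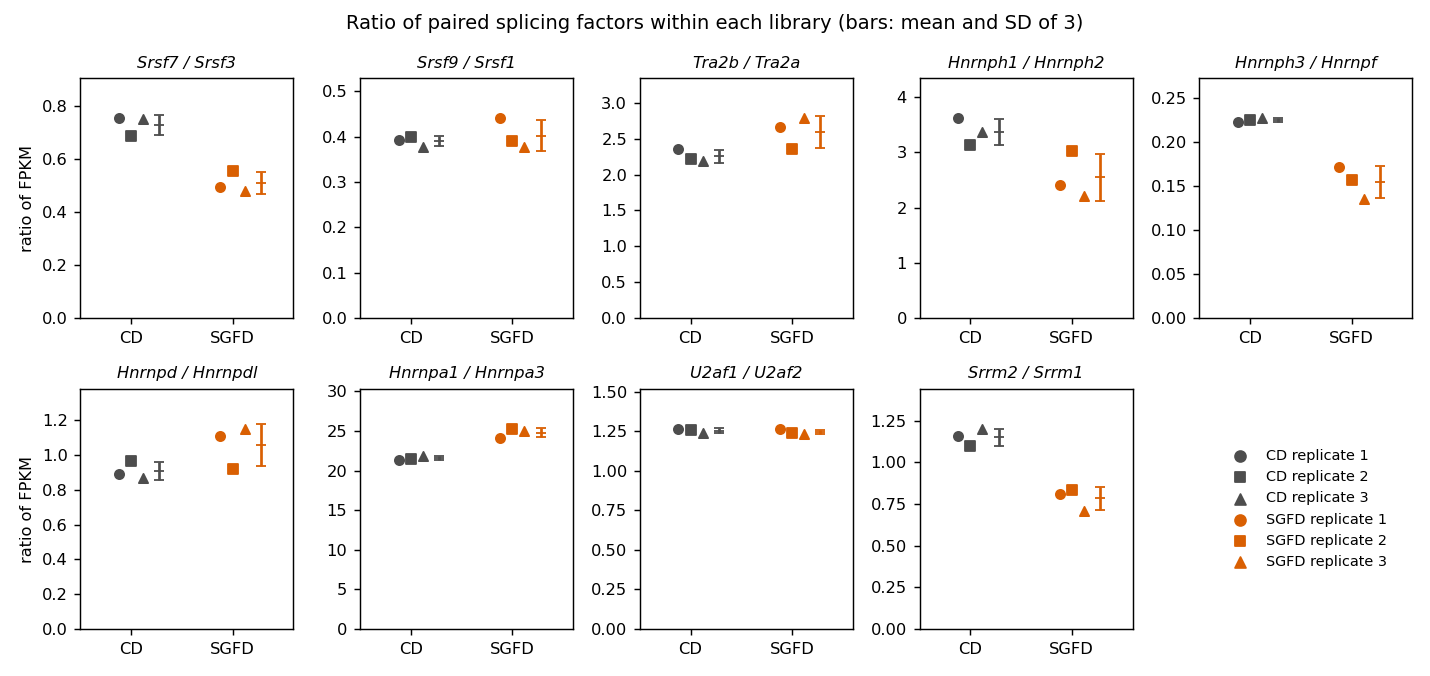
Ratio of the FPKM of a pair of members (y axis, from 0) in each CD and SGFD library (x axis), with the mean and SD of 3 libraries beside the points; the symbol shape gives the replicate number. The ratios Srsf7 to Srsf3, Hnrnph1 to Hnrnph2, Hnrnph3 to Hnrnpf and Srrm2 to Srrm1 are lower in all SGFD libraries, Hnrnpa1 to Hnrnpa3 is higher, and U2af1 to U2af2 stays between 1.24 and 1.26.

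Many members shared an order among the SGFD libraries, picked after the values were seen. Replicate 3 was lowest and replicate 2 highest in 23 of the 37 tested members (62.2%), beside 28.2% of all tested genes. Of the 18 members not called 11 had this SGFD order. In 9 of the 11 members called lower, SGFD replicate 3 was lowest and SGFD replicate 2 highest of the SGFD libraries while CD replicate 2 was lowest of the CD libraries. The exceptions were Hnrnpc and Hnrnph3. This joint order of both diets held for 21.5% of the 4438 tested genes called lower and for 14.7% of all tested genes. It was seen in 1 of the 8 members called higher, and among the 18 that were not called in 5. The summed granulocyte-monocyte progenitor markers had the reverse order among the SGFD libraries, from 4058 FPKM in replicate 2 to 4449.7 FPKM in replicate 3, but only 4 of the 10 markers had it singly, Mpo with the highest level among them. Whether these cells have a part in the order of the splicing factors was not tested. The SGFD order was also the reverse of summed FPKM, at 464222 in replicate 2, 475019 in replicate 1 and 485048 in replicate 3. CD replicate 2 had the highest sum with CD (433592). Recovered fragments ran in the SGFD order, from 18440968 in replicate 3 to 19531159 in replicate 2, but were not lowest in CD replicate 2. The order was taken on the deposited scale alone, and a part of library scale or depth in it was not tested.

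Summed over a class, the SR genes came to 1432, 1364 and 1435 FPKM with CD and to 1294, 1419 and 1210.4 FPKM with SGFD, and the diets overlapped. The hnRNP genes came to 3734, 3723 and 3749 FPKM with CD and to 3996, 4068 and 3930.03 FPKM with SGFD, with every SGFD library above every CD library. As a share of all FPKM in a library, however, hnRNP genes had 0.869% ± 0.00926 with CD and 0.843% ± 0.033 with SGFD. SR genes had 0.328% ± 0.0118 with CD and 0.276% ± 0.0282 with SGFD. In these shares the diets overlapped for the hnRNP genes and did not for the SR genes. The 5 core genes summed to 433 ± 8.65 and 427 ± 27.2 FPKM.

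Gene values count all transcripts of a gene together. In GENCODE M21 (GRCm38) 26 of the 38 members (68.4%) have at least 1 transcript annotated as a target of nonsense-mediated decay, beside 30.5% of 10222 tested protein-coding genes, and 29 (76.3%) have a transcript with a retained intron, beside 61.9%. By class, 11 of 13 SR genes, 10 of 20 hnRNP genes and 5 of 5 core genes have an annotated decay transcript. Such a transcript is annotated for 9 of the 11 members called lower, 5 of the 8 called higher and 12 of the 18 not called. Whether productive mRNA or these other forms changed cannot be read from 1 value per gene. The deposited values imply a gene length of 5396 bases for Hnrnpa3, equal to the union of its GENCODE exons, but 1692 bases for Srsf5, whose GENCODE exons cover 3988 bases. Levels of different members therefore rest on lengths of different kinds; the comparison of diets does not, since the length cancels. Across the 37 tested members the Spearman correlation of the implied length with the log2 fold change was -0.237, given as a description since members share libraries.

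The leading members lie on several chromosomes in GRCm38. Srsf7 is on chromosome 17 from 80200080 to 80207307 and Srrm2 on chromosome 17 from 23790532 to 23824741. Srsf6 is on chromosome 2 from 162931528 to 162937121, Srsf4 on chromosome 4 from 131873617 to 131901706 and Hnrnph3 on chromosome 10 from 63014664 to 63024217. Hnrnpd is on chromosome 5 from 99955935 to 99978938, next to Hnrnpdl from 100033577 to 100039664.

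The rest of the splicing machinery was described with 12 lists. Of 153 tested genes in them 47 were higher (30.7%) and 34 lower (22.2%), beside 17.7% and 41.8% of all tested genes, with a median log2 fold change of 0.02. The counts moved with the scaling, as did those of all genes. After median-ratio scaling they were 84 higher and 13 lower, beside 28.8% and 26.8% of all tested genes. Quantile normalization gave 32 higher and 35 lower, beside 21.3% and 24%. With libraries rescaled to the same sum there were 18 higher and 69 lower, beside 9.72% and 59.6%. All 7 tested genes of the Sm ring, the protein core of the spliceosomal particles, rose, with a median of 0.27. Snrpg went from 287 ± 9.19 to 377 ± 4.24 FPKM, and Snrpf from 117 ± 2.07 to 154 ± 3.43 FPKM, both under every setting. Quantile normalization left 2 of the 7 higher and none lower. Of 8 LSm genes, which form the like ring of U6 and of mRNA decay, 5 rose, Lsm5 going from 35.6 ± 1.86 to 54.7 ± 5.04 FPKM, and 1, Lsm3, was called lower, a call that was lost without any 1 library. Rescaling to the same sum left 3 LSm genes higher and 1 lower.

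Partners of Sf3b1 in the U2 particle held 5 higher and no lower of 12, Sf3b5 going from 74.9 ± 1.72 to 96.8 ± 9.97 FPKM and Sf3a3 from 75.9 ± 4.46 to 86.8 ± 0.935 FPKM. The split became 2 higher and 3 lower after quantile normalization, and 1 higher and 5 lower after rescaling to the same sum. Of the 10 other U1 and U2 genes 4 rose and 2 fell; quantile normalization left 1 higher and 2 lower, and rescaling to the same sum 1 higher and 4 lower. Without CD replicate 1 or 3, or SGFD replicate 1 or 3, 1 was lower. Luc7l3, a U1-associated protein with an RS tail of its own, rose from 36.9 ± 0.527 to 56.2 ± 0.772 FPKM (limma, adjusted p = 2.47e-06), and Prpf39 fell from 14.8 ± 1.34 to 9.88 ± 2.19 FPKM (limma, adjusted p = 0.0042). Among 16 tested genes of the U4/U6 and U5 particles 6 rose, such as Prpf31 (39.4 ± 0.912 to 50.4 ± 2.78 FPKM), and 1, Prpf8, was called lower. The call of Prpf8 was lost without any CD library and without SGFD replicate 1 or 3, and rescaling to the same sum turned the balance of the list to 1 higher and 5 lower. The Prp19 and catalytic step list had 3 higher, among them the helicase Dhx38 (24.9 ± 1.11 to 31.1 ± 1.15 FPKM), and 2 lower of 18. Median-ratio scaling gave 11 higher and none lower, rescaling to the same sum 1 higher and 7 lower, and 1 was lower without CD replicate 1 or 3 or SGFD replicate 1. The minor spliceosome list had 2 higher and 2 lower of 9, with none lower without CD replicate 1 or 3 or SGFD replicate 1 or 3, and after median-ratio scaling or quantile normalization. Rescaling to the same sum gave none higher and 4 lower.

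The list of kinases that phosphorylate SR proteins and of their nuclear importer had no higher and 3 lower of 9 tested. Of all tested genes 17.7% were higher and 41.8% lower. Log2 fold changes ran from -0.29 to -0.0081 over the list, with a median of -0.14 beside -0.13 for all tested genes. Dyrk1a went from 17.6 ± 0.758 to 14.4 ± 1.25 FPKM and Prpf4b from 20.3 ± 0.939 to 16.6 ± 1.74 FPKM. No gene of this list was called lower after median-ratio scaling or quantile normalization, and 7 were without SGFD replicate 2. In the exon junction complex, which marks spliced mRNA, 4 of 9 rose, with Eif4a3 going from 132 ± 0.855 to 158 ± 4.02 FPKM, and 2 fell, with Casc3 going from 28.8 ± 1.08 to 23.3 ± 1.41 FPKM. Rescaling to the same sum left 1 higher. Nonsense-mediated decay, the fate of the unproductive forms of many members, had 1 higher and 5 lower of 10. Its median log2 fold change was -0.12, near that of all tested genes. Smg1, the kinase that phosphorylates Upf1, fell from 25.1 ± 1.05 to 11.7 ± 1.96 FPKM (limma, adjusted p = 1.73e-05), and Smg6, the endonuclease of the pathway, from 22.4 ± 0.443 to 17.2 ± 0.854 FPKM. Both passed under every setting, while the higher call of Smg9 was lost without CD replicate 1 or 2, or without SGFD replicate 1. The decay list had 2 higher without SGFD replicate 2 and 3 without SGFD replicate 3. It had 4 higher and 3 lower after median-ratio scaling, and 4 higher and 4 lower after quantile normalization. The mRNA export list had 3 higher, such as Alyref (99.3 ± 1.78 to 113 ± 0.805 FPKM), and 2 lower, such as Chtop (65.5 ± 1.03 to 55.8 ± 0.657 FPKM), of 12. It had 4 lower without CD replicate 2, 1 higher and 3 lower after quantile normalization, and 1 higher and 6 lower after rescaling to the same sum.

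Of 33 other splicing regulators 7 rose and 14 fell, near the 17.7% and 41.8% of all tested genes. Their log2 fold changes ran from -1.10 to 1.09, a wider range than that of the SR, hnRNP and core members (-0.53 to 0.36). Median-ratio scaling turned the balance, to 12 higher and 7 lower, beside 28.8% and 26.8% of all tested genes. Quantile normalization gave 4 higher and 16 lower, beside 21.3% and 24%. Rescaling to the same sum gave 3 higher and 24 lower, beside 9.72% and 59.6%. Rbm3, a cold-inducible RNA-binding protein, had 78.8, 80.6 and 80.7 FPKM with CD and 177, 163 and 175 FPKM with SGFD, a rise of 1.09 ± 0.04 in log2 (limma, adjusted p = 3.01e-08). Celf1 fell from 23.5 ± 0.579 to 14.6 ± 0.735 FPKM and Rbm5 from 50.03 ± 2.42 to 29.7 ± 4.94 FPKM. Rbm3, Celf1 and Rbm5 passed in the same direction under every setting.

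**Figure D4:**
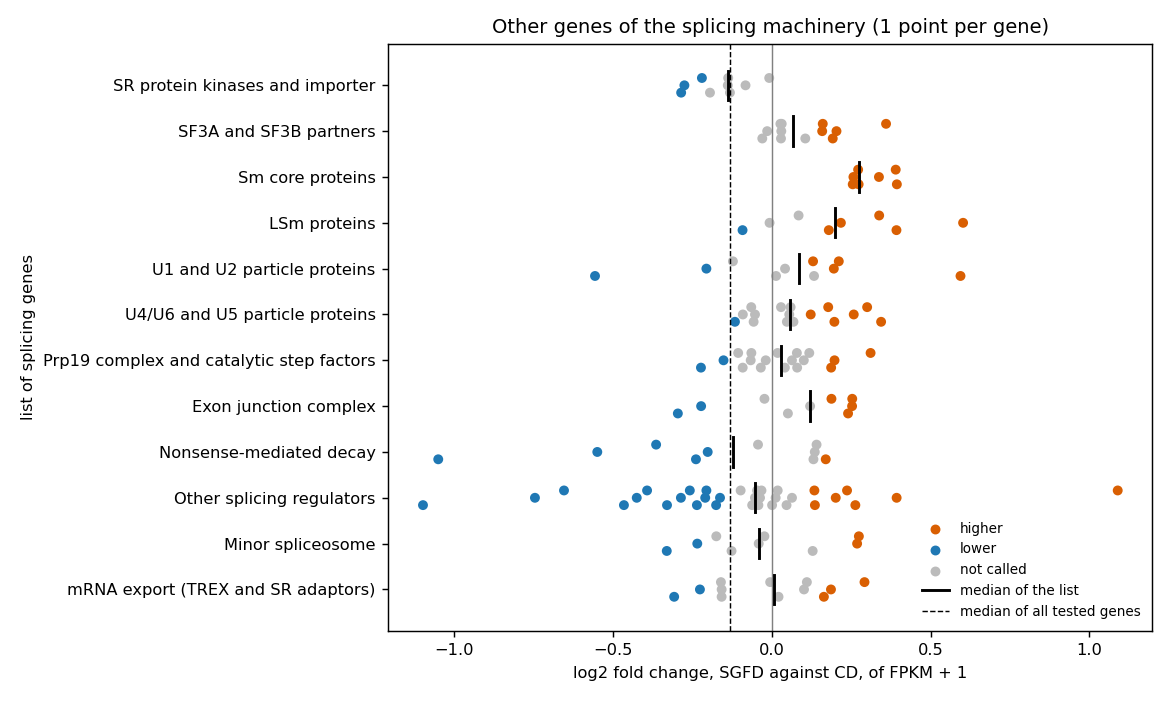
Fitted log2 fold change (x axis, SGFD against CD, of FPKM + 1) of each tested gene in 12 lists of the splicing machinery (y axis, 1 row a list); orange (higher) and blue (lower) points passed the threshold of 0.05, grey points did not, the vertical bars are list medians and the dashed line is the median of all tested genes. All 7 Sm genes lie right of 0. All 9 genes of the kinase list lie left of it, with a median close to the dashed line. Rbm3, Smg1 and Ptbp2 are among the genes that lie farther out than any member.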

How the data were processed

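RNA was sequenced from 3 CD and 3 SGFD libraries made with a strand-marking kit, per the labels' protocols. HISAT2, StringTie and fastp, with no versions, and mm10 (GRCm38) appear in the submitters' processing notes. The deposited tables give 1 FPKM value per gene and library; the unit was read from the values, and whether strand was used in counting is not given in the sources used here. Fragment numbers were recovered as whole multiples of 1 fragment for 15508 of 15509 genes (tolerance of 0.02 fragments), and served to state depth.

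Groups were taken from the diet label. Genes that reached 1 FPKM in 3 libraries or more were fitted in limma 3.58.1 (R 4.3.3) on log2(FPKM + 1), with a mean-variance trend and robust moderation, and p-values were Benjamini-Hochberg adjusted over them. The script was tested on simulated data in which few genes changed, evenly in both directions, and all libraries had the same scale. That setting differs from these libraries, so the simulation cannot show how far the calls here hold. Summed FPKM differed between diets, from 427769 to 433592 with CD and from 464222 to 485048 with SGFD, so other scalings, filters, pseudocounts, weights and left-out libraries were run for the tests of members and the 12 lists. Class sums were repeated with other scalings and left-out libraries, marker lists with other scalings, and pair ratios with quantile normalization, while the library order was taken on the deposited scale alone. Values per library are given for core members, Tra2a, Tra2b, Srsf2 and Hnrnpk, for the 6 largest called changes without overlap and the 3 highest levels of each class; from each of the 12 lists, up to 2 called genes per direction with the smallest p are named. The members and all lists, including the cell markers, were chosen with earlier results of these data known. Promoters came from RefSeq GRCm38.p6 and gene models from GENCODE M21. Hnrnpa1 and some other members have processed copies elsewhere in the genome, and how their reads were shared is not given in the sources used here.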

Additional observations from a re-analysis of the deposited data

How the results depend on the processing

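Of the 8 members called higher, 1 kept its call under all 16 alternatives, and of the 11 called lower 5 did; the cause of the losses was not tested. Among counts of members, filters, pseudocounts, weights and the trend moved these by over 1.5 times: SR genes called higher were 1 with no filter and 1 without trend or robust moderation, and core genes called lower were 2 with array weights. Among the 12 lists, array weights gave 5 kinase genes lower, 4 decay genes higher, 6 Prp19 and catalytic genes higher, 4 export genes lower and 2 U4/U6 and U5 genes lower. With no filter 0 minor spliceosome genes and 1 U1 and U2 gene were lower, and 0 decay genes higher; other pseudocounts and the filter of 5 FPKM each left 1 minor spliceosome gene lower. Without trend or robust moderation 0 decay genes were higher, and 0 LSm and 0 U4/U6 and U5 genes lower.

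After median-ratio scaling 3054 of all genes were higher and 2844 lower. Members were 21 higher and 5 lower (SR genes 5 higher, hnRNP genes 13 higher and 1 lower, core genes 3 higher), and the related lists 84 higher and 13 lower. After quantile normalization 2552 of all genes were lower. Members were 1 higher (SR 0, hnRNP 1), and core genes lower were 2. With libraries rescaled to the same sum 1032 of all genes were higher. Members were 2 higher and 17 lower (SR 0 higher, hnRNP 2 higher and 10 lower, core 2 lower), and the related lists 18 higher and 69 lower. The ratio of summed levels, SGFD over CD, was 1.02, 0.826 and 0.841 for SR genes under these 3 scalings in turn, 1.18, 0.913 and 0.970 for hnRNP genes and 1.08, 0.903 and 0.893 for core genes.

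The sign of the log2 fold change differed from that on the deposited scale for 15 of 37 members under quantile normalization, 13 with rescaling to the same sum and 6 with median-ratio scaling. Of these, the members with a call on the deposited scale or on the other one were, under quantile normalization, Hnrnpa1 -0.083, Hnrnpa2b1 -0.093, Hnrnpab -0.018, Hnrnpa0 -0.061, Hnrnpk -0.17, Hnrnpm -0.21, Hnrnpul1 -0.0385, Srsf3 -0.17 and Tra2b -0.018. Under rescaling to the same sum they were Hnrnpa3 (-0.13), Hnrnpm (-0.11), Hnrnpul1 (-0.045) and Srsf9 (-0.0128), and under median-ratio scaling Hnrnpf (0.14).

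Leaving out 1 library at a time gave 1596 to 1922 genes higher and 3588 to 4606 lower, and 6 to 10 members higher and 9 to 12 lower. SR genes were 1 to 3 higher and 3 to 5 lower, hnRNP genes 5 to 7 higher and 5 to 6 lower, core genes 0 to 0 higher and 1 to 2 lower, and related lists 40 to 52 higher and 26 to 40 lower. Summed ratios ran from 0.888 to 0.962 (SR), 1.06 to 1.08 (hnRNP) and 0.952 to 1.01 (core).

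The replicate numbers share only a number: deviations of same-numbered libraries from their diet means correlated at -0.007, -0.227 and -0.133 over genes. With the replicate block 1706 genes were higher and 4087 lower, and 6 members higher and 10 lower, with 1 SR gene higher. Low depth limits Srsf12 alone among the members, at 1 to 17 fragments a library.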
